A study of Mus musculus with 12 samples.

Results

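The 10 genes described here encode receptors with which macrophages bind antibody-coated particles, microbial sugars, modified lipoproteins and cell debris: Fcgr1, Fcgr2b, Fcgr3, Fcer1g, Clec7a, Mrc1, Msr1, Marco, Stab1 and Cd163. They were chosen by name, and each was read at its brightest probe set over 12 arrays, among those that name that gene alone. All 10 were measured, of 18193 genes tested in the whole series. The 10 genes hold 19 such probe sets, with 1 for each of 6 genes and several for the other 4, Fcgr1, Fcgr2b, Msr1 and Marco.

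Fcγ receptors bind the constant region of IgG. Activating receptors such as Fcgr1 and Fcgr3 signal through the γ chain encoded by Fcer1g, whose tyrosines recruit the kinase Syk, while Fcgr2b carries its own inhibitory motif and restrains them. Clec7a, known as Dectin-1, is a C-type lectin for fungal β-glucan, and Mrc1 is the mannose receptor. Msr1 and Marco are class A scavenger receptors for polyanions, modified lipoproteins and bacteria, Stab1 is a large scavenger receptor of sinusoidal endothelium and tissue macrophages, and Cd163 takes up haemoglobin bound to haptoglobin. Bone marrow macrophages use such receptors to clear antibody-coated cells and dying leukocytes.

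The arrays came from primary cultures of whole bone marrow from female C57BL/6 mice aged 6 weeks. The 4 groups of 3 arrays each were c-kit+ cells from cultures given 17βE, which is 17β-estradiol, at 1 nM for 1 week, c-kit+ cells from untreated control cultures, CD44+ cells from estradiol cultures and CD44+ cells from control cultures. The labels call c-kit+ cells stem cells and CD44+ cells stromal cells. Nothing in them tells if replicates came from different cultures or mice, so the p-values reflect only how far these samples spread, which may be technical, and the number of arrays limits the precision. Values are log2 signals as deposited, so a difference of 1 is a 2-fold change. Levels are compared only within a probe set.

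The labels were set against marker genes before the receptors were read. Kit, which encodes the c-kit receptor, lay between 3.79 and 4.22 on all 12 arrays. Y-linked probe sets, which have no target in female mice, read up to 4.54 and serve as the background level, so Kit was not above background in the cells labelled c-kit+ either. One Y-linked probe set for Sry of the cross-hybridising _x_at type, which read higher, was left out of that level. Cd44 lay between 11.76 and 12.46 in both cell types. The mean of 10 macrophage markers lay between 11.97 and 12.32 on c-kit+ arrays and between 11.75 and 12.07 on CD44+ arrays, with Csf1r, the receptor for the macrophage growth factor, between 13.86 and 14.11. Thus macrophage transcripts were abundant under both labels, and the names c-kit+ and CD44+ below are the labels' names only. In c-kit+ control replicate 3 the root mean square deviation from the group mean was 0.268, against 0.123 to 0.191 for the other arrays. Receptor gene results that turn on it are given without it as well. Results for markers and other named genes are given on all 12 arrays only.

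In control cultures 4 of the 10 receptor genes were higher in c-kit+ than in CD44+ cells: Stab1 by 1.73-fold, Fcgr1 by 1.64-fold, Clec7a by 1.63-fold and Mrc1 by 1.58-fold. In estradiol cultures Mrc1 passed the test, again 1.58-fold higher in c-kit+ cells. No receptor gene was lower in c-kit+ cells at the threshold in either kind of culture. These are bulk samples, so fewer cells of a type and less RNA per cell cannot be told apart. The test was limma's moderated test with p adjusted by Benjamini-Hochberg across the 18193 genes, and a gene passed where its adjusted p was below 0.05.

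Against the background of all genes, 2.3% were called in control cultures and 0.539% were called higher in c-kit+ cells, 98 of 418 calls, set beside 4 of 10 receptor genes. An unadjusted p below 0.05 was found for 7 of the 10 and for 13.6% of all genes. For 6 of the 10 all 3 c-kit+ arrays lay above all 3 CD44+ arrays, which held for 7.41% of all genes. In estradiol cultures 2.65% of all genes were called and 0.324% were called higher, 59 of 483 calls, beside 1 of 10 receptor genes. There 5 of the 10 had an unadjusted p below 0.05, beside 9.77% of all genes, and 7 lay wholly higher, beside 10.0% of all genes. The median log2 difference of the 10 genes was 0.63 in control cultures and 0.45 in estradiol cultures, where the medians of all genes were 0.01 and 0.03. Among the 9097 genes at or above the median level, 3.07% were called in control cultures, beside 4 of 9 receptor genes. Of those 279 calls 84 were higher in c-kit+ cells, and the median difference was 0.09. In estradiol cultures 2.75% of them were called, 37 of 250 calls higher, beside 1 of 9 receptor genes. Centring each array on its median, which moved the median difference of all genes in control cultures by 0.10, raised the share of calls that were higher in c-kit+ cells to 46.1% from 23.4% in control cultures and to 22.7% from 12.2% in estradiol cultures. The receptor genes called were the same number under centring, 4 in control cultures and 1 in estradiol cultures.

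Among the Fc receptors, Fcgr1, the high-affinity receptor for IgG, differed most clearly. Probe set 1417876_at read 10.60, 10.76 and 11.09 in c-kit+ estradiol arrays and 10.69, 10.68 and 10.85 in c-kit+ control arrays. It read 9.98, 10.35 and 10.51 in CD44+ estradiol arrays and 10.03, 10.03 and 10.04 in CD44+ control arrays. Every c-kit+ array lay above every CD44+ array, and the CD44+ control arrays were nearly identical. The difference, c-kit+ minus CD44+, was 0.71 in control cultures (SE 0.15, 95% interval 0.40 to 1.03, limma adjusted p = 0.0211). It was 0.54 in estradiol cultures (SE 0.15, interval 0.22 to 0.85), where the limma adjusted p was 0.0892 and, with the replicate number as a block, 0.0253. Replicate numbers met the pairing criterion in the estradiol arrays of both cell types. The block was fitted to all groups together, however, and the c-kit+ groups and the control arrays did not meet the criterion. The criterion therefore does not cover the fit that gave 0.0253.

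Fcgr3, the low-affinity activating receptor, read 10.42, 10.52 and 10.52 in c-kit+ estradiol arrays and 10.59, 10.52 and 10.47 in c-kit+ control arrays. The CD44+ values were 10.20, 10.27 and 10.41 in estradiol arrays and 10.36, 10.19 and 10.13 in control arrays. The cell types did not overlap, but the gap was narrow, 10.42 against 10.41 at its closest. The difference was 0.30 in control cultures (interval 0.08 to 0.51, 1.23-fold, limma adjusted p = 0.177) and 0.19 in estradiol cultures (interval -0.02 to 0.41, adjusted p = 0.592), and neither passed. Fcer1g, the γ chain on which both activating receptors depend, lay between 10.63 and 11.25 over all arrays, and all 4 groups overlapped. Its difference was -0.04 in control cultures (interval -0.35 to 0.26) and -0.08 in estradiol cultures, so a difference of the size seen for Fcgr1 lay outside the interval in control cultures.

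Fcgr2b, the inhibitory receptor, read 10.02, 10.18 and 10.14 in c-kit+ estradiol arrays and 9.99, 9.84 and 9.12 in c-kit+ control arrays. In CD44+ cells it read 9.21, 9.65 and 9.76 in estradiol arrays and 8.98, 9.15 and 9.02 in control arrays. The low c-kit+ control value, 9.12, belonged to replicate 3 and lay within the CD44+ control range, while the other 2 c-kit+ control arrays lay above it. The difference between cell types was 0.60 in control cultures (SE 0.20, interval 0.17 to 1.03, limma adjusted p = 0.172) and 0.57 in estradiol cultures (SE 0.20, interval 0.14 to 1.00, adjusted p = 0.243). Without c-kit+ control replicate 3 it passed in both, with 0.87 in control cultures (limma adjusted p = 0.00633) and 0.57 in estradiol cultures (adjusted p = 0.0298).

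Both C-type lectins were higher in c-kit+ cells of control cultures. Clec7a read 11.50, 11.40 and 11.42 in c-kit+ estradiol arrays and 11.67, 11.09 and 11.56 in c-kit+ control arrays. The CD44+ values were 10.87, 11 and 10.81 in estradiol arrays and 11.02, 10.77 and 10.44 in control arrays. All c-kit+ arrays lay above all CD44+ arrays, the lowest being c-kit+ control replicate 2 at 11.09. The difference was 0.70 in control cultures (SE 0.16, interval 0.35 to 1.05, limma adjusted p = 0.0401) and 0.55 in estradiol cultures (interval 0.20 to 0.90, adjusted p = 0.133).

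Mrc1, which recognises mannose-bearing glycoproteins and is often used as a marker of alternatively activated macrophages, read 11.72, 11.39 and 11.80 in c-kit+ estradiol arrays and 11.64, 11.59 and 11.91 in c-kit+ control arrays. In CD44+ cells it read 11.12, 10.70 and 11.12 in estradiol arrays and 11.19, 10.94 and 11.04 in control arrays. The cell types were again fully separate, by 11.39 against 11.19 at the closest. The difference was 0.66 (SE 0.15, interval 0.34 to 0.98) in both kinds of culture, with a limma adjusted p of 0.0353 in control and 0.0316 in estradiol cultures.

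Of the scavenger receptors, Stab1 had the lowest adjusted p of all 10 genes in control cultures. It read 11.11, 10.89 and 10.90 in c-kit+ estradiol arrays and 11.17, 11.06 and 11.49 in c-kit+ control arrays. The CD44+ values were 10.57, 10.31 and 10.59 in estradiol arrays and 10.65, 10.48 and 10.21 in control arrays. The c-kit+ arrays lay above the CD44+ arrays in every case. The difference was 0.79 in control cultures (SE 0.14, interval 0.48 to 1.11, limma adjusted p = 0.00994) and 0.48 in estradiol cultures (interval 0.16 to 0.79, adjusted p = 0.147).

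Marco was the most variable of the 10. It read 13.36, 13.97 and 13.86 in c-kit+ estradiol arrays and 12.69, 13.52 and 13.85 in c-kit+ control arrays. In CD44+ cells it read 12.79, 13.68 and 13.45 in estradiol arrays and 11.79, 13.23 and 12.70 in control arrays. Replicate 1 was the lowest array of its group in all 4 groups, and the cell types overlapped. The difference between cell types was 0.78 in control cultures (SE 0.36, interval -0.00 to 1.57, limma adjusted p = 0.369) and 0.43 in estradiol cultures (interval -0.36 to 1.21, adjusted p = 0.846). With the replicate number as a block the limma adjusted p in control cultures was 0.0225, though the control arrays did not meet the pairing criterion.

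Msr1 read 12.14, 12 and 12.20 in c-kit+ estradiol arrays and 12.06, 12.01 and 12.30 in c-kit+ control arrays. The CD44+ values were 11.95, 12 and 11.97 in estradiol arrays and 11.93, 11.83 and 11.33 in control arrays. Most arrays lay close together, CD44+ control replicate 3 was the low one, and in estradiol cultures the lowest c-kit+ and the highest CD44+ array were equal to the printed decimals. The difference was 0.43 in control cultures (SE 0.14, interval 0.11 to 0.74, 1.34-fold, limma adjusted p = 0.183) and 0.14 in estradiol cultures (adjusted p = 0.896). Cd163, the haemoglobin receptor, lay between 3.71 and 4.38 on all 12 arrays, at or below the Y-linked level, and was the only receptor gene to do so, so its signal could not be told from background. Its differences of 0.03 in control cultures and 0.28 in estradiol cultures therefore carry no direction for the transcript.

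**Figure D1:**
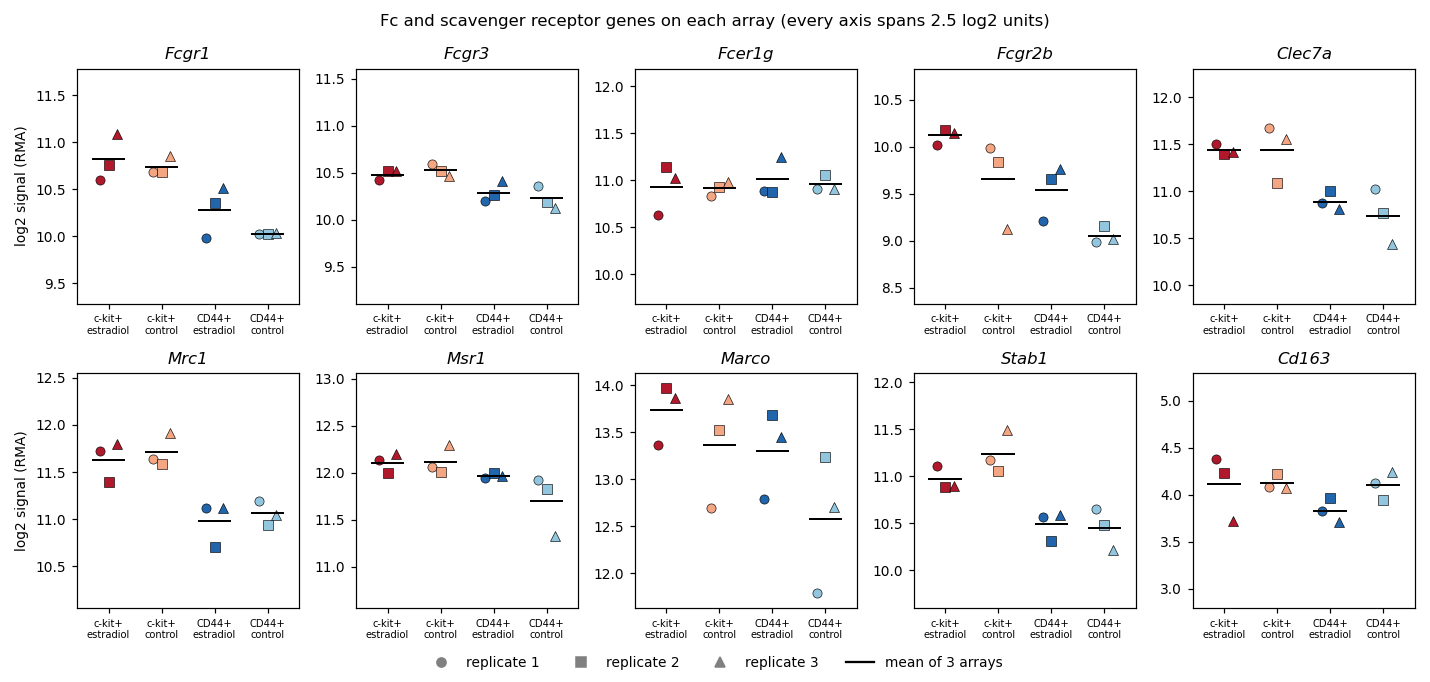
Log2 signal of each receptor gene on each of the 12 arrays, with 1 panel per gene, the groups on the horizontal axis and a bar at the mean of 3 arrays. Every vertical axis spans 2.5 log2 units but starts at its own level; Fcgr1, Clec7a, Mrc1 and Stab1 sit higher in both c-kit+ groups, Marco spreads widely with replicate 1 lowest, and Cd163 stays between 3.71 and 4.38.

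**Figure D2:**
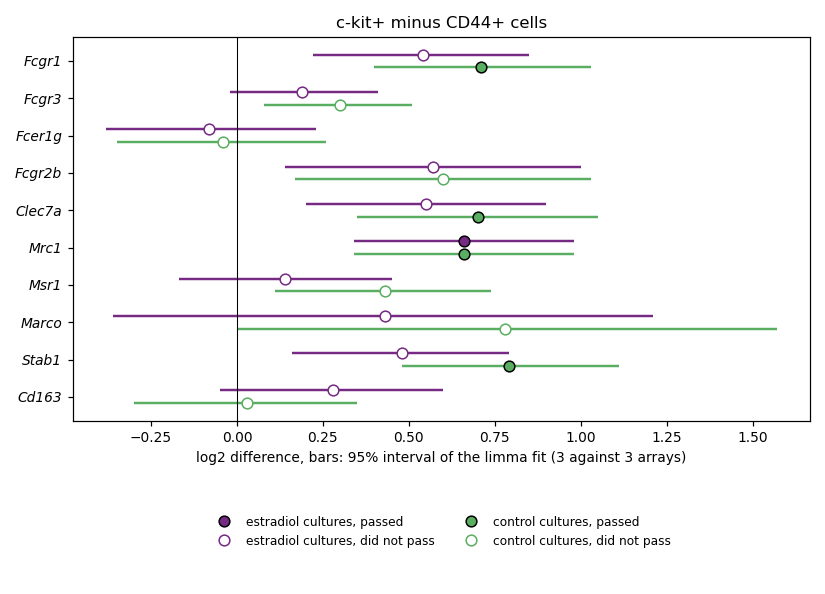
Log2 difference of c-kit+ minus CD44+ cells for each receptor gene, in estradiol and control cultures (horizontal axis; points are limma estimates from 3 against 3 arrays, bars are 95% intervals, and filled points passed the test). In control cultures Stab1 (0.79), Fcgr1 (0.71), Clec7a (0.70) and Mrc1 (0.66) are filled, in estradiol cultures Mrc1 (0.66), and Fcer1g lies near 0 in both.

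The calls depended on single arrays and on settings. In control cultures Stab1 lost its call only without CD44+ control replicate 3 (0.68, adjusted p = 0.0564). Fcgr1 lost it without c-kit+ control replicate 1 (adjusted p = 0.0611) or 3 (0.0506) and without CD44+ control replicate 1 (0.0589), 2 (0.0596) or 3 (0.0824), while its difference stayed between 0.66 and 0.74. Mrc1 lost it without c-kit+ estradiol replicate 1 (0.66, adjusted p = 0.0537), c-kit+ control replicate 1 (0.69, 0.0823) or 3 (0.56, 0.0904), and CD44+ control replicate 1 (0.72, 0.051), 2 (0.60, 0.126) or 3 (0.65, 0.136). Clec7a kept it only without c-kit+ control replicate 2 or CD44+ control replicate 1, and its adjusted p ran from 0.0122 to 0.194 over the 12 arrays left out. So 0 receptor genes passed without CD44+ control replicate 3, and 1, Stab1, passed without c-kit+ control replicate 1 or CD44+ control replicate 2. Without c-kit+ estradiol replicate 1 (Stab1 and Fcgr1), c-kit+ control replicate 3 (Stab1 and Fcgr2b) or CD44+ control replicate 1 (Stab1 and Clec7a) there were 2. In estradiol cultures Mrc1 lost its call without c-kit+ estradiol replicate 1 (0.62, adjusted p = 0.131) or 3 (0.57, 0.126) and without CD44+ estradiol replicate 1 (0.72, 0.062), 2 (0.52, 0.138) or 3 (0.73, 0.0558), each of which gave 0 receptor genes. Other settings ended calls in control cultures too: Fcgr1 with the mean of its probe sets (0.54, adjusted p = 0.0593) or after quantile normalization (0.57, 0.0843), Mrc1 after quantile normalization (0.49, 0.132) or with the 6 arrays alone (0.66, 0.0769), Stab1 with the 6 arrays alone (0.79, 0.0871), and Clec7a with every probe set tested (0.70, 0.0525) or the 6 arrays alone (0.70, 0.233). All of these p-values are limma's, adjusted over all genes, and the differences of the 4 genes stayed above 0 with every array left out.

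Other transcripts moved with the same comparison. The mean of 8 mesenchymal markers lay between 5.28 and 6.14 in c-kit+ arrays and between 6.86 and 8.22 in CD44+ arrays, and 5 of the 8 were lower in c-kit+ cells of control cultures and 6 of 8 in estradiol cultures. Col1a2, a chain of type I collagen, averaged 7.52 in c-kit+ and 10.89 in CD44+ control arrays, a difference of -3.37 (SE 0.40, limma adjusted p = 0.000763). The mean of 5 measured stem and progenitor markers of 6 listed lay between 5.64 and 5.86 in c-kit+ arrays and between 6.40 and 6.87 in CD44+ arrays, with Kit at background on every array. The markers were uneven: Hoxa9 averaged 6.03 in c-kit+ and 8.23 in CD44+ control arrays, and Cd34 6.60 and 7.88. Gata2 (6.17 and 6.35) and Meis1 (6.22 and 6.43) differed little. Of 10 macrophage markers 1 was higher in c-kit+ cells of control cultures, C1qb (0.55, adjusted p = 0.0294), and 2 in estradiol cultures, C1qb (0.57, adjusted p = 0.0207) and Aif1 (0.92, adjusted p = 0.0273). The mean of 9 mast cell and basophil markers lay between 4.02 and 4.51 in c-kit+ arrays and between 4.05 and 4.21 in CD44+ arrays, with 4 of the 9 at or below the Y-linked level throughout, although Cpa3 read 6.31 on c-kit+ estradiol replicate 1. The mean of 8 endothelial markers, relevant because Stab1 is also an endothelial receptor, lay between 4.64 and 4.87 in c-kit+ arrays and between 4.63 and 4.75 in CD44+ arrays, with 4 of the 8 at or below the Y-linked level. Stab2, one of these 8, was higher in c-kit+ cells in both kinds of culture, by 0.71 in control (adjusted p = 0.0482) and 0.82 in estradiol cultures (adjusted p = 0.0195). The mean of 6 dendritic cell markers lay between 6.04 and 6.54 in c-kit+ arrays and between 6.69 and 6.88 in CD44+ arrays. Of these, 2 were lower in c-kit+ cells of control cultures, Cd74 (-1.41, adjusted p = 0.00317) and H2-Ab1 (-1.10, adjusted p = 0.0254), which serve antigen presentation. The mean of 7 measured neutrophil markers lay between 4.43 and 4.76 in c-kit+ arrays and between 4.78 and 5.2 in CD44+ arrays, and none of the 7 passed. The mean of 6 osteoclast markers lay between 5.99 and 6.03 in c-kit+ and 6.24 and 6.48 in CD44+ estradiol arrays, and between 5.71 and 5.77 in c-kit+ and 5.96 and 6.09 in CD44+ control arrays, with 1 of 6 lower in c-kit+ cells of control and 2 of 6 of estradiol cultures. The part that the other cell types have in the receptor differences was not tested.

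**Figure D3:**
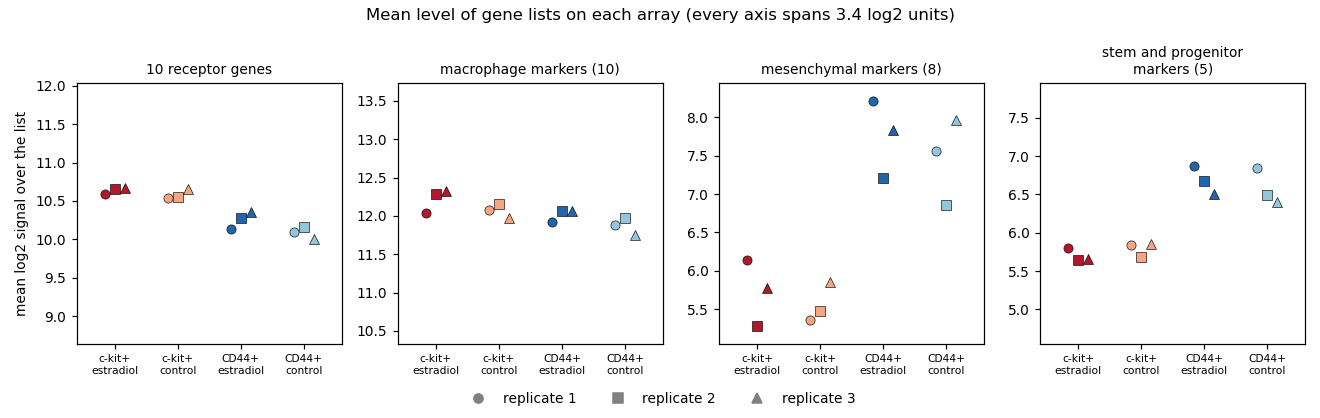
Mean log2 signal on each array over the 10 receptor genes, 10 macrophage, 8 mesenchymal and 5 stem and progenitor markers (panels), by group on the horizontal axis; every vertical axis spans 3.4 log2 units. The receptor mean lies between 10.54 and 10.67 in c-kit+ arrays and between 10.01 and 10.36 in CD44+ arrays, while mesenchymal markers lie between 5.28 and 6.14 in c-kit+ arrays and between 6.86 and 8.22 in CD44+ arrays.

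RNA quality also differed between the cell types. The log2 signal of the 3' minus the 5' control probe set of Gapdh, which is larger where transcripts are shortened at the 5' end, lay between 4.23 and 6.17 in c-kit+ arrays and between 2.83 and 4.31 in CD44+ arrays, and that of Actb between 2.34 and 4.68 in c-kit+ arrays and between 1.52 and 2.14 in CD44+ arrays. With the Gapdh measure as a covariate, which was added as an alternative once the data had been seen, the control culture differences were 0.99 for Fcgr1 (limma adjusted p = 0.0113), 0.62 for Stab1 (adjusted p = 0.179), 0.60 for Mrc1 (adjusted p = 0.259) and 0.55 for Clec7a (adjusted p = 0.368). In estradiol cultures Mrc1 then differed by 0.61 (adjusted p = 0.205) and Fcgr1 by 0.79 (adjusted p = 0.0194). The differences of these 4 genes kept their direction, and Fcgr1 was the receptor gene that passed in each kind of culture. The Gapdh measure overlapped only narrowly between the cell types, so RNA quality and cell type cannot be told apart here. Calls kept or lost under the covariate do not separate them. Among genes that did not pass, Marco then differed by 1.42 in control and 1.01 in estradiol cultures, Stab1 by 0.32 in estradiol cultures, and Fcer1g by 0.17 in control and 0.12 in estradiol cultures, where its differences without the covariate were below 0.

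The promoters of the 4 genes that passed are shown because PU.1, the transcription factor required for macrophage development, is known to act at the promoters of human FCGR1A and mouse Mrc1. They are the 200 bases upstream of a transcription start in RefSeq's table for GRCm38.p6, and 9 of the 10 genes had an entry there. Capitals mark GAGGAA or its reverse complement TTCCTC, the core of the PU.1 motif, searched on both strands.
Fcgr1: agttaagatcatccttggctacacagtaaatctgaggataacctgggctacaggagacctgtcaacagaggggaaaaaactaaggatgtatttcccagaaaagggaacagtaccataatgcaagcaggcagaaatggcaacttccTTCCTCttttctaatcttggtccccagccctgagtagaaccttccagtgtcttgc
Mrc1: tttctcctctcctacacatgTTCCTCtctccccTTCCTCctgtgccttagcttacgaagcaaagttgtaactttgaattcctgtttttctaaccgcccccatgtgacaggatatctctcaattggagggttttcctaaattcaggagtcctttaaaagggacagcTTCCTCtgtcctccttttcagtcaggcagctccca
Stab1: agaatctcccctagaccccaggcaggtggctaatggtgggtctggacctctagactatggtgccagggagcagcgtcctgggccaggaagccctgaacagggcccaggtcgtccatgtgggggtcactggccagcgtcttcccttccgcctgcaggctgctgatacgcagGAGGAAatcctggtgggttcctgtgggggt
Clec7a: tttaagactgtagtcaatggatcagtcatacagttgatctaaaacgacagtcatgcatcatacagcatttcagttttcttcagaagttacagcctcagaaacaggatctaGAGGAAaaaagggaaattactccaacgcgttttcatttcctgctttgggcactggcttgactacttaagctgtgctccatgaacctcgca

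The Fcgr1 window is chr3:96293970-96294169 on the minus strand, just upstream of the gene at chr3:96282909-96293969, with a match starting 55 bases before the start of transcription. The Mrc1 window is chr2:14229214-14229413 on the plus strand, upstream of the gene at chr2:14229414-14332023, with matches 180, 167 and 35 bases before the start. The Stab1 window is chr14:31168642-31168841 on the minus strand, with a match 30 bases before a start that lies 10 bases inside the annotated gene at chr14:31139017-31168651. The Clec7a window is chr6:129472786-129472985 on the minus strand, upstream of the gene at chr6:129461591-129472785, with a match 90 bases before the start. A match was found for 6 of the 9 genes with an entry, the other two being Marco and Fcgr3, and in 19.0% of all 32851 promoter windows of that length. The interferon-γ activated site TTCNNNGAA, known from the human FCGR1A promoter, was found for 1 of the 9, Fcgr1, as TTCCCAGAA 109 bases before the start, and in 5.49% of all windows. The 9 genes had 11 windows in all, which gives them more chances of a match than 1 window each, and a match describes letters, not binding.

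On the chromosomes, the 3 Fc receptor chain genes Fcgr2b (chr1:170960558-170976071), Fcgr3 (chr1:171051169-171065915) and Fcer1g (chr1:171229572-171234349) lie close together in GRCm38.p6. Their differences in control cultures were 0.60, 0.30 and -0.04 in that order. Fcgr1, Marco (chr1:120474538-120505024), Msr1 (chr8:39543232-39642750) and Cd163 (chr6:124304636-124330529) lie elsewhere.

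None of the 10 receptor genes passed the test of estradiol against control cultures, in c-kit+ cells, in CD44+ cells or averaged over both. Marco alone passed averaged over both when the replicate number was a block, as given below. Fcgr2b had the smallest unadjusted p of the 10 in each, with estradiol over control ratios of 1.38 in c-kit+ cells and 1.41 in CD44+ cells. Marco had a ratio of 1.66 in CD44+ cells with a wide spread. The estradiol and cell type comparisons share arrays, so they are not independent of each other.

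In c-kit+ cells 0 of 10 receptor genes passed limma's test, beside 0.181% of all genes. An unadjusted p below 0.05 was found for 1 of the 10, beside 4.47% of all genes, and 1 lay wholly higher in estradiol arrays, beside 5.34%. In CD44+ cells 0 of 10 passed, beside 0.291%, 1 had an unadjusted p below 0.05, beside 5.38%, and 2, Fcgr2b and Msr1, lay wholly higher, beside 6.75%. Averaged over both cell types 0 passed, beside 0.951%, and 1 had an unadjusted p below 0.05, beside 7.16%. These shares of 10 genes are near the background. The mean of the 10 macrophage markers lay between 12.04 and 12.32 in c-kit+ estradiol and between 11.97 and 12.15 in c-kit+ control arrays, and between 11.92 and 12.07 in CD44+ estradiol and between 11.75 and 11.97 in CD44+ control arrays. Of these markers Cd14 was higher with estradiol averaged over both cell types (0.43, limma adjusted p = 0.0148). The median log2 difference of the 10 was -0.01 in c-kit+ and 0.11 in CD44+ cells, where the medians of all genes were 0.02 and 0.01.

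At most of the other Fcgr2b probe sets the estradiol and control arrays overlapped, as given below. At the brightest, 1435477_s_at, every estradiol array lay above all control arrays of the same cell type, in both cell types. The gap was narrow in c-kit+ cells, 10.02 against 9.99 at its closest. The difference was 0.47 in c-kit+ cells (SE 0.20, 95% interval 0.04 to 0.90, limma unadjusted p = 0.0348, adjusted p = 0.999). It was 0.49 in CD44+ cells (SE 0.20, interval 0.07 to 0.92, limma unadjusted p = 0.0269, adjusted p = 0.809), and 0.48 averaged over both (SE 0.14, interval 0.18 to 0.78, unadjusted p = 0.00451, adjusted p = 0.218). Taken between arrays of the same replicate number, the differences were 0.04, 0.34 and 1.03 in c-kit+ cells and 0.24, 0.50 and 0.75 in CD44+ cells. Since the groups did not overlap, none of these could be below 0. The value of 1.03 rests on c-kit+ control replicate 3, and without that array the c-kit+ difference was 0.20 (limma adjusted p = 0.919). Under array weights the CD44+ difference was 0.43 and passed (adjusted p = 0.0389), in a fit that weighted CD44+ control replicate 2 at 9.377, against 0.254 to 1.482 for the other arrays, and called 1405 genes, against 53.

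Marco differed by 0.38 in c-kit+ cells (SE 0.36, interval -0.41 to 1.16, limma adjusted p = 0.999) and by 0.73 in CD44+ cells (SE 0.36, interval -0.05 to 1.51, unadjusted p = 0.0654, adjusted p = 0.949). Between arrays of the same number the differences were 0.67, 0.45 and 0.01 in c-kit+ cells and 0.99, 0.45 and 0.75 in CD44+ cells. None of these was below 0, and they ran from 0.01 to 0.67 in c-kit+ cells and from 0.45 to 0.99 in CD44+ cells. With the replicate number as a block no receptor gene passed for estradiol in CD44+ cells. The CD44+ groups met the pairing criterion, but the block was fitted to all groups together. The c-kit+ difference was 0.04 without c-kit+ control replicate 1 and 0.62 without c-kit+ control replicate 3, and the CD44+ difference was 0.34 without CD44+ control replicate 1. Averaged over both cell types Marco differed by 0.55 (SE 0.26, interval -0.00 to 1.11, limma unadjusted p = 0.0504, adjusted p = 0.698). With the replicate number as a block its limma adjusted p was 0.0423, though the c-kit+ groups did not meet the pairing criterion.

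The other estradiol differences were small. Msr1 differed by 0.28 in CD44+ cells (interval -0.03 to 0.59, limma adjusted p = 0.949) and by -0.01 in c-kit+ cells (interval -0.32 to 0.30). Fcgr1 differed by 0.07 in c-kit+ cells (interval -0.24 to 0.39) and by 0.25 in CD44+ cells (interval -0.07 to 0.57), and Stab1 by -0.27 (interval -0.59 to 0.04) and 0.04 (interval -0.27 to 0.36) in these cells. For Clec7a the differences were -0.00 (interval -0.35 to 0.35) and 0.15 (interval -0.20 to 0.50), and for Mrc1 -0.08 in each (interval -0.40 to 0.24). Fcgr3 was the most narrowly bounded, at -0.04 in c-kit+ cells (interval -0.26 to 0.17) and 0.06 in CD44+ cells (interval -0.15 to 0.28). Fcer1g differed by 0.02 in c-kit+ cells (interval -0.29 to 0.32) and by 0.05 in CD44+ cells. Missing the threshold does not show that these genes did not respond, and the intervals bound what these arrays could show.

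**Figure D4:**
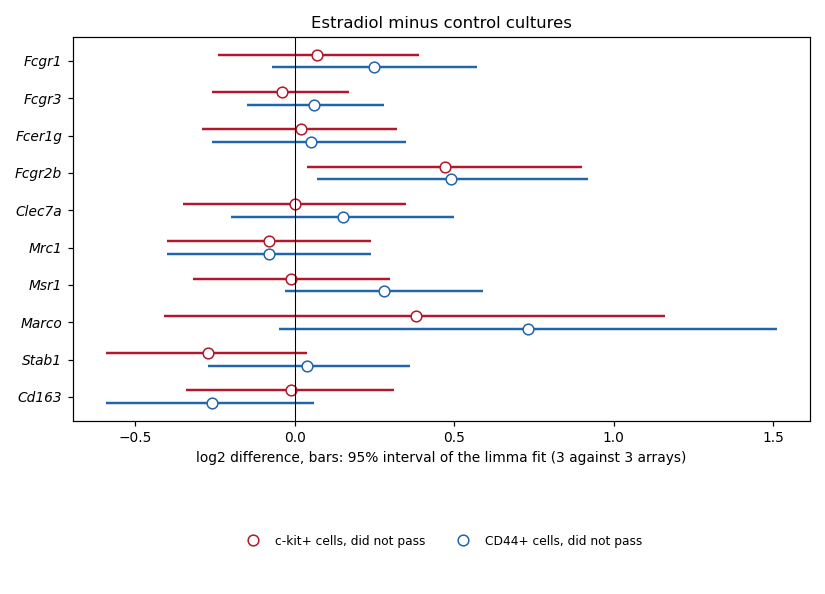
Log2 difference of estradiol minus control cultures for each receptor gene in c-kit+ and CD44+ cells (horizontal axis; points are limma estimates from 3 against 3 arrays, bars are 95% intervals, and open points did not pass). All points are open; the Fcgr2b intervals, 0.04 to 0.90 in c-kit+ and 0.07 to 0.92 in CD44+ cells, are the ones that lie above 0, and the Marco intervals are the widest.

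The estradiol effects of the cell types were compared directly. Of the 10 receptor genes 0 passed limma's test of the difference of effects, beside 0.0% of all genes, and 0 had an unadjusted p below 0.05, beside 1.63%, or 296 genes. The difference of effects, c-kit+ minus CD44+, was -0.35 for Marco (SE 0.51, interval -1.46 to 0.75), -0.32 for Stab1 (interval -0.76 to 0.13) and -0.29 for Msr1 (interval -0.73 to 0.15), each with an adjusted p of 1. For Fcgr2b it was -0.03, and -0.29 without c-kit+ control replicate 3.

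Where a gene had several probe sets, they were set against each other, with adjustment over all 34945 probe sets that name 1 gene. The 4 Fcgr2b probe sets above background had estradiol differences of 0.47, 0.28, 0.28 and 0.18 in c-kit+ cells and of 0.49, 0.34, 0.37 and 0.46 in CD44+ cells, and none passed. Between cell types of control cultures they differed by 0.60, 0.38, 0.53 and 0.77, and the last, 1451941_a_at, passed (limma adjusted p = 0.0395). All 4 therefore pointed the same way, but they read the same RNA and are not independent. Among them, 1455332_x_at is of the cross-hybridising _x_at type. Estradiol and control arrays overlapped in c-kit+ cells at 1435476_a_at, 1455332_x_at and 1451941_a_at. In CD44+ cells they overlapped at 1435476_a_at and 1455332_x_at. The fifth, 1447622_at, lay between 3.18 and 3.92, at the Y-linked level. The second Fcgr1 probe set, 1436625_at, differed between cell types of control cultures by 0.37 (adjusted p = 0.288), where the first differed by 0.71. In estradiol cultures the second differed by 0.47 (limma adjusted p = 0.18). There its cell types overlapped, with a c-kit+ array at 7.93 and a CD44+ array at 7.96. The 4 Msr1 probe sets differed between cell types of control cultures by 0.43, 0.11, 0.17 and 0.36.

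Of the Marco probe sets, the second, 1458297_s_at, read 6.57, 8.25 and 8.55 in c-kit+ estradiol arrays and 6.64, 7.42 and 6.18 in c-kit+ control arrays. The CD44+ values were 6.37, 8.25 and 7.69 in estradiol arrays and 5.76, 7.32 and 7.22 in control arrays. Replicate 1 was low here too, except among c-kit+ control arrays, where replicate 3 was lowest. Between cell types of control cultures it differed by -0.02 (95% interval -1.31 to 1.26). The first probe set differed there by 0.78, which lies within that wide interval. Its estradiol differences were 1.04 in c-kit+ and 0.67 in CD44+ cells for the second probe set, and 0.38 and 0.73 for the first. None of these passed.

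**Figure D5:**
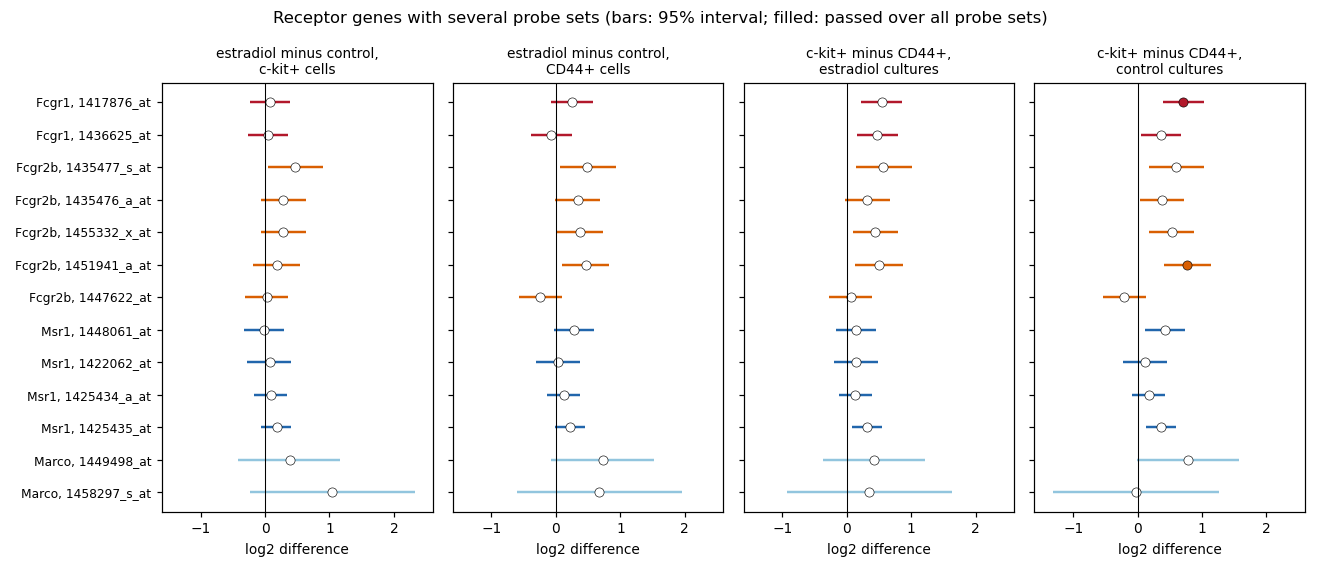
Log2 differences of every probe set of the 4 receptor genes with several (rows), for estradiol minus control in each cell type and for c-kit+ minus CD44+ cells in estradiol and control cultures (panels); bars are 95% intervals of the limma fit, and filled points passed over all probe sets. Filled are Fcgr1 1417876_at (0.71) and Fcgr2b 1451941_a_at (0.77) in control cultures, and the intervals of Marco 1458297_s_at are the widest.

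Related genes that are not receptors of this set were read from lists chosen by function, with calls from the same limma fit. These calls, like those of the markers above, are given from that fit alone. They are not given with an array left out or with the Gapdh covariate. Of 9 other immunoglobulin receptors measured and of 17 genes of Fc receptor and Dectin-1 signalling measured, Syk among them, none passed in any of the 6 comparisons. Syk lay between 10.71 and 10.81 in c-kit+ estradiol, 10.63 and 10.73 in c-kit+ control, 10.57 and 10.76 in CD44+ estradiol and 10.32 and 10.53 in CD44+ control arrays.

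Of 16 other scavenger receptors, 2 were higher and 1 lower in c-kit+ cells of control cultures. Cd5l, a soluble scavenger protein of tissue macrophages, averaged 13.63 in c-kit+ and 12.68 in CD44+ arrays, a difference of 0.95 (SE 0.16, limma adjusted p = 0.0063). Stab2, the relative of Stab1 that takes up hyaluronan, averaged 6.13 in c-kit+ and 5.42 in CD44+ arrays, a difference of 0.71 (adjusted p = 0.0482), and differed by 0.82 in estradiol cultures (adjusted p = 0.0195), where it was the only 1 of the 16 to pass. Scara3, the lower one, averaged 3.45 in c-kit+ and 4.23 in CD44+ arrays, so both means were below the Y-linked level of 4.54.

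Of 13 other C-type lectin receptors, none was higher and 2 were lower in c-kit+ cells of control cultures. Mrc2, a collagen-binding relative of Mrc1 found on fibroblasts, averaged 4.39 in c-kit+ and 5.98 in CD44+ arrays, a difference of -1.59 (SE 0.33, limma adjusted p = 0.0211), and differed by -1.74 in estradiol cultures (adjusted p = 0.00951). Ly75, the other, averaged 2.78 in c-kit+ and 3.50 in CD44+ arrays, below the Y-linked level. The c-kit+ mean of Mrc2 in control cultures was below the Y-linked level of 4.54 and that in estradiol cultures, 4.70, was near it, so the sizes of these differences are not well known. Mrc2 moved with the mesenchymal markers above.

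Clec4e, known as Mincle, a lectin that senses mycobacterial glycolipid and pairs with the γ chain encoded by Fcer1g, rose with estradiol when averaged over both cell types. It read 12.23, 12.69 and 12.81 in c-kit+ estradiol arrays and 11.49, 12.06 and 11.72 in c-kit+ control arrays. In CD44+ cells it read 12.58, 12.99 and 12.92 in estradiol arrays and 11.85, 12.30 and 12.02 in control arrays. The estradiol arrays lay above the control arrays in both cell types. Averaged over both the difference was 0.80 (SE 0.13, 1.74-fold, limma adjusted p = 0.00922), and 1 of the 13 lectins, this one, passed. In each cell type alone it did not pass, with 0.82 in c-kit+ cells (adjusted p = 0.181) and 0.77 in CD44+ cells (adjusted p = 0.168).

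Of 7 measured genes for haemoglobin and haem handling, Slc40a1, the iron exporter ferroportin, was higher in c-kit+ cells of control cultures, at 12.96 in c-kit+ and 12.28 in CD44+ arrays (difference 0.68, limma adjusted p = 0.0269). Hp, haptoglobin, the ligand partner of Cd163, was lower in c-kit+ cells, with a difference of -1.20 in control (adjusted p = 0.0271) and -1.19 in estradiol cultures (adjusted p = 0.0252). Of 9 measured macrophage transcription factors Irf8 was higher, at 10.12 in c-kit+ and 9.37 in CD44+ control arrays (difference 0.75, adjusted p = 0.0239). Spi1, which encodes PU.1, did not pass in any of the 6 comparisons.

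For each of the 4 receptor genes that passed, the genes nearest in pattern were found by the root mean square difference over 12 arrays, after each gene's own mean was subtracted. The receptor genes' own root mean square deviations on this scale were 0.361 to 0.366. Nearest to Fcgr1 were Trim30d (0.137), Slfn5 (0.14) and Lhfpl2 (0.145). Nearest to Mrc1 were Wwp1 (0.143), Stab1 (0.147) and Slc39a12 (0.156), so that another receptor gene of the set stood second. Nearest to Stab1 were Arhgap19 (0.112), Lmo2 (0.12) and C330007P06Rik (0.136), and nearest to Clec7a were Pag1 (0.103), Gpr65 (0.106) and Arhgap25 (0.113). These distances describe the 12 arrays only, and the arrays share the difference between cell types.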

How the data were processed

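Expression was measured on 12 Affymetrix arrays of amplified, biotin-labelled total RNA, per the labels. The authors deposited log2 values made with RMA, per the submitters' processing notes, whose version no source used here gives. They ran from 2.47 to 14.81 and array medians from 4.75 to 4.84. Of 45101 probe sets, 64 were controls, 34945 named 1 gene, 932 several and 9160 none here. Values entered unfiltered.

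limma 3.58.1 in R 4.3.3 was fitted with 1 mean per group over 12 arrays, tested on simulated data, with Benjamini-Hochberg adjustment over 18193 genes at 0.05, for 6 comparisons. Tables used pandas 2.3.3 under Python 3.11.15, and figures matplotlib 3.10.9. The receptor genes, gene lists and motifs were chosen with earlier results of these data known. Named are the 10 genes, up to 3 passing genes per list and comparison, and the 3 genes nearest in pattern to each receptor gene that passed; markers, Syk and Spi1 were named after their values were seen. Gene positions are RefSeq's for GRCm38.p6, and the build behind the probe annotation was likewise not stated.

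Replicate numbers were taken to pair arrays where deviations from group means correlated above 0.1 for all 3 numbers. Estradiol arrays of both cell types (0.447, 0.192 and 0.312) and the CD44+ groups (0.303, 0.368 and 0.322) met this. The c-kit+ groups (0.345, 0.092 and 0.253) and the control arrays of both cell types (0.175, 0.122 and -0.208) did not. Alternatives were the mean of probe sets, every probe set, genes at or above the median level, quantile normalization, median centring, array weights, robust moderation with a trend, a replicate block, the 6 arrays alone, leaving out each array, and the added Gapdh covariate.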

Additional observations from a re-analysis of the deposited data

How the results depend on the processing

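Over 10 settings and 12 arrays left out in turn, 1294 values of single receptor genes were recomputed: 1204 kept their direction and side of the threshold or moved by less than their standard error, 39 moved by more, 38 lost a call, 13 gained one, and 0 called values changed sign. Among values that passed in neither fit, 73 changed sign. In control cultures, where 4 receptor genes passed between c-kit+ and CD44+ cells, 2 passed after quantile normalization, 1 with the 6 arrays alone (Fcgr1), 1 with the Gapdh covariate (Fcgr1), 3 with the mean of probe sets (Fcgr1 lost), 3 with every probe set tested (Clec7a lost), 6 with array weights (Fcgr2b and Fcgr3 added) and 0 to 4 with an array left out. In estradiol cultures, where 1 passed, 2 passed after quantile normalization and with the 6 arrays alone, each time with Clec7a added, 3 with array weights (Stab1 and Clec7a added) and 0 to 2 with an array left out. The replicate block gave 2 there (Fcgr1 added), 5 in control cultures (Marco added, adjusted p = 0.0225) and, for estradiol averaged over both cell types, 1 where the main fit gave 0 (Marco, adjusted p = 0.0423); it changed no other count of receptor genes. Array weights gave 1 for estradiol in CD44+ cells, where the main fit gave 0. Over all genes the array weights called 1405 genes for estradiol in CD44+ cells (53 in the main fit), 55 in c-kit+ cells (33), 1058 between cell types of control cultures (418), 779 in estradiol cultures (483) and 523 on average (173). The block called 101, 62, 693, 662 and 272 in the same comparisons. The covariate called 253 between cell types of control cultures, and the 6 arrays alone 196 there and 2 for estradiol in c-kit+ cells. The causes of these changes were not tested. Low-signal genes such as Cd163 cannot be read at any setting here.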
